A study of Mus musculus with 4 samples.

Results

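The retinoid genes described here are 10 genes that make, break down, take up or sense retinoic acid. A chromatin loop belonged to a gene when 1 of its anchors overlapped the gene's RefSeq body extended by 10 kb on each side. By that rule 127 of the 59353 loops listed over 4 Hi-C libraries of mouse uterus lay at these genes. Hi-C ligates neighbouring stretches of chromatin and reads the junctions, and a loop is a pair of segments, its anchors, that meet more often than their surroundings. The libraries came from wild-type uterus after progesterone (1 library, replicate 2), from ERα knockout uterus after saline vehicle (1 library), and from wild-type uterus after the same vehicle (2 libraries, replicates 2 and 3). All animals were C57BL/6J females more than 10 weeks old. Their ovaries were removed, they rested for 10 to 14 days, and the uterus was frozen 1 h after the injection. Progesterone (1 mg in 100 ul of sesame oil) was injected under the skin and saline (100 ul) into the abdominal cavity, so carrier and route cannot be told apart from the hormone. The knockout carries the allele labelled Ex3aERKO, in which the estrogen receptor gene Esr1 is disrupted in the whole animal, so its uterus also grew without the receptor. The whole organ was used, which mixes epithelium, stroma and muscle, and loop lists hold no expression by which the tissue label could be checked. The labels do not say whether a library was 1 animal or a pool.

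The lists held 11752 loops after progesterone, 21829 in the knockout, 16387 in vehicle replicate 2 and 9385 in vehicle replicate 3. They give positions only, so depth and loop strength are unknown, and the lack of a loop from a list means that it was not called there. Progesterone and the knockout have 1 library each, so no test between conditions was run and all values are a description of these libraries. The genes were chosen with earlier results of these data in view and their loops were selected on the listed anchor positions, so the counts are no evidence that loops gather at retinoid genes.

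Retinoic acid is made from vitamin A by oxidation in steps. Retinol dehydrogenases such as Rdh10 form retinaldehyde, and the retinaldehyde dehydrogenases Aldh1a1, Aldh1a2 and Aldh1a3 form retinoic acid. The cytochrome P450 enzymes Cyp26a1 and Cyp26b1 break it down, Stra6 is a cell surface receptor that takes up retinol from its carrier in blood, and the nuclear receptors Rara, Rarb and Rarg bind retinoic acid and switch genes on or off together with a retinoid X receptor. In the mouse uterus stromal retinoic acid is linked to the response to estrogen and to decidualisation, the change of stroma that receives the embryo.

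RefSeq promoter sequences (GRCm38.p6, the assembly behind mm10) were at hand for 8 of the 10 genes, as windows from 250 bases before to 50 bases after a start site. Those of Rarb and Cyp26a1 are shown because each holds a direct repeat of the kind that retinoic acid receptors bind, and those of Aldh1a2 and Cyp26b1 because their start sites lay in loop anchors. Capitals mark the direct repeat in the first pair and the letters TATANA in the second.
Rarb, chr14:16575427-16575726, minus strand: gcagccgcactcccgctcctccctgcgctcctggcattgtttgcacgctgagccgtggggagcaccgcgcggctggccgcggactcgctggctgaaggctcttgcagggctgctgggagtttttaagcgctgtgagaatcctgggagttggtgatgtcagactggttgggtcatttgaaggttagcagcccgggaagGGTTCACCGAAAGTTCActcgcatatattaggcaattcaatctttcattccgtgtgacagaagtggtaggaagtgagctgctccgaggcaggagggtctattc
Cyp26a1, chr19:37697558-37697857, plus strand: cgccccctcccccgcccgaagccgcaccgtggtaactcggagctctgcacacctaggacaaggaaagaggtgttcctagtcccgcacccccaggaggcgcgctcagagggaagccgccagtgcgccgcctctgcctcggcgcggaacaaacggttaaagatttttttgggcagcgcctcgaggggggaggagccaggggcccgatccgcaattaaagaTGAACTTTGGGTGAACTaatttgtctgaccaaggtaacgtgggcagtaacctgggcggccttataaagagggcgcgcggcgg
Aldh1a2, chr9:71215539-71215838, plus strand: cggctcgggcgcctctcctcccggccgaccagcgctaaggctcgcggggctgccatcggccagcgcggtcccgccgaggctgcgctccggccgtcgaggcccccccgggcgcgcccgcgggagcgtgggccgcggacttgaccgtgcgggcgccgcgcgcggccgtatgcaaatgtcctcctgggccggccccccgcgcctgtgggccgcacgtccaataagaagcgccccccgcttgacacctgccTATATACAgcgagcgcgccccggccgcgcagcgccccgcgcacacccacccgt
Cyp26b1, chr6:84593761-84594060, minus strand: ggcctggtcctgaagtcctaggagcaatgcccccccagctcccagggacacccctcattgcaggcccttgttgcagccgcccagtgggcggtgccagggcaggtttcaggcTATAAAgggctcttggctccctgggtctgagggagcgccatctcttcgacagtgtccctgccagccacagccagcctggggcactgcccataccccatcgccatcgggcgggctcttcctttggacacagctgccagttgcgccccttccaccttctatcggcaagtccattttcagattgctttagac
The direct repeat was searched as a pair of 6-letter half-sites (AGGTCA, also with G as the first letter or T as the third) with 5 bases between them, on both strands. It began at position -53 from the listed Rarb start site, which lies inside the gene body. In Cyp26a1 it began at position -32 from the start site and reads on the opposite strand to the gene. A repeat of this kind was in 32 of 32851 promoter windows (0.0974%), and the other windows of the retinoid genes had none. The 6-letter search was set after these sequences were seen, and the planned 5-letter half-sites matched no retinoid gene window. With 2 bases between the half-sites no retinoid gene window matched, against 0.268% of all windows, and none held the estrogen response palindrome (GGTCA, any 3 bases, then its reverse complement), against 0.07% of all. TATANA was in 24.7% of all windows. The marked matches began at position -139 in Cyp26b1 and at positions -3 and -1 in Aldh1a2, and Cyp26a1 also had a match at position 29. Both Rarb and Cyp26a1 are textbook retinoic acid targets. A match is a description of letters and not a measured binding site.

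Loops were listed at 8 of the 10 genes after progesterone, against 49.4% of 21887 protein-coding genes by the same rule. In the knockout 9 of 10 genes had a loop (64.4% of all genes), in vehicle replicate 2 it was 9 (56.8%) and in vehicle replicate 3 it was 8 (44.8%). The same 8 genes had a loop in each list, as did 38.3% of all genes. Aldh1a1 had a loop in the knockout and in vehicle replicate 2 alone, and Stra6 had none in any list, like 30.5% of all genes. Loops at the 10 genes numbered 28 after progesterone, 41 in the knockout, 37 in vehicle replicate 2 and 21 in vehicle replicate 3. The order follows the length of the lists. As a share of its list this was 0.238% (95% exact binomial interval 0.158 to 0.344) after progesterone, 0.188% (0.135 to 0.255) in the knockout, 0.226% (0.159 to 0.311) in vehicle replicate 2 and 0.224% (0.139 to 0.342) in vehicle replicate 3. The intervals of all 4 shares overlap, and they cover counting error only. The median retinoid gene had 3, 4.5, 3.5 and 2.5 loops in the same order of libraries, and the median protein-coding gene had 0, 1, 1 and 0.

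**Figure D1:**
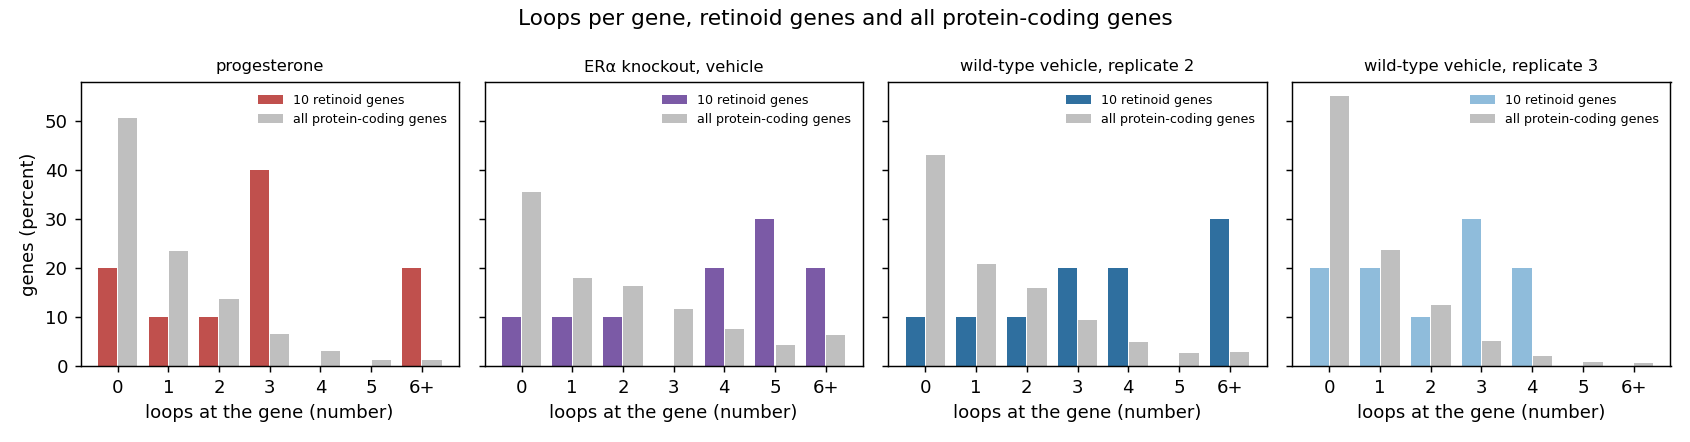
Share of genes (percent) with 0 to 6 or more loops in each of the 4 libraries, for the 10 retinoid genes (coloured) and 21887 protein-coding genes (grey). With 3 or more loops there were 6 retinoid genes after progesterone (12.3% of all genes) and 7 in vehicle replicate 2 (19.9%). In vehicle replicate 3 there were 5 (8.74%). In the knockout 7 retinoid genes had 4 or more loops (18.4% of all genes).

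**Figure D2:**
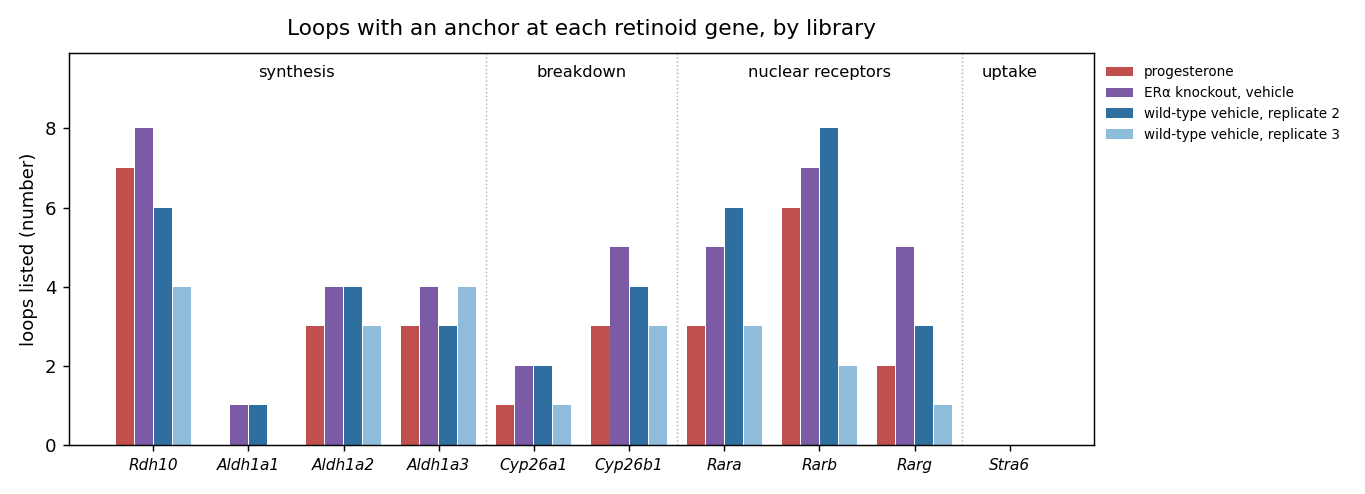
Number of loops listed at each retinoid gene in each library, with genes ordered by role. Rdh10 and Rarb reach 8 loops, the vehicle replicates differ most at Rarb (8 and 2 loops), and Stra6 has no bar.

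Among the genes of synthesis Rdh10 had the most loops, except in vehicle replicate 3, where Aldh1a3 had as many. Rdh10 encodes the retinol dehydrogenase that starts retinoic acid synthesis in the embryo and lies at chr1:16105882-16132550. It had 7 loops after progesterone, 8 in the knockout, 6 in vehicle replicate 2 and 4 in vehicle replicate 3. As many loops or more were at 0.736%, 2.32%, 2.98% and 3.62% of all protein-coding genes in the same order. Loops that matched across lists were joined into 1 distinct loop, where a match means that both anchors overlapped after 10 kb was added to each of their sides. Of the 9 distinct loops of Rdh10, 4 were in all 4 lists. One ran 275 to 300 kb to the lower side, to Terf1, which encodes a telomere-binding protein. The rest ran to the higher side and ended in Stau2, an RNA-binding protein gene, at spans of 100 to 125, 195 to 200 and 325 to 330 kb.

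The remaining Rdh10 loops were longer or rarer. A 510 kb loop to Ube2w, a ubiquitin-conjugating enzyme gene, was in the knockout and vehicle replicate 2. A loop of 575 kb after progesterone and 555 kb in the knockout was in neither vehicle list. Its far anchor covered Tmem70 and Ly96 in the 25 kb bin of the progesterone list and Eloc in the 5 kb bin of the knockout list. Likewise a loop of 990 kb after progesterone, to Jph1, and 1000 kb in the knockout was in neither vehicle list. A 75 kb loop was listed after progesterone alone and a 475 kb loop to Kcnb2 in the knockout alone. The 10 and 25 kb anchors that begin at 16100001 also cover Rpl7, a ribosomal protein gene beside Rdh10. A loop called with them cannot by that call be given to Rdh10 rather than to Rpl7. In the knockout list the 5 kb near anchors of the 115, 195 and 330 kb loops to Stau2 and of the 510 kb loop overlapped Rdh10 and not Rpl7. The near anchor of the 555 kb knockout loop (16100001 to 16105000) overlaps Rpl7 and not Rdh10.

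Aldh1a2, the main retinaldehyde dehydrogenase gene of the early embryo, lies at chr9:71215789-71296243 on the plus strand. It had 3 loops after progesterone, 4 in the knockout, 4 in vehicle replicate 2 and 3 in vehicle replicate 3. Every one of these loops had the Aldh1a2 start site, whose promoter is printed above, inside an anchor, and every one ran to the higher side, over the gene and beyond. Loops of 230 to 240 kb and of 400 to 410 kb were in all 4 lists. The far anchor of the longer one touched Cgnl1, a cell junction protein gene, after progesterone and in vehicle replicate 2. A 100 to 110 kb loop was in all lists but that of vehicle replicate 3. A 140 to 150 kb loop was in the knockout and vehicle replicate 3, and a 330 kb loop to Myzap was in vehicle replicate 2 alone.

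Aldh1a3 (chr7:66390892-66427477) had 3 loops after progesterone, 4 in the knockout, 3 in vehicle replicate 2 and 4 in vehicle replicate 3, but few of them touched the gene. An anchor overlapped its body in 1, 0, 0 and 1 of these loops in the same order, and the rest lay in the 10 kb flanks. In the knockout and in vehicle replicate 2 the nearest anchor was 0.892 kb from the gene. Loops of 280 to 290 kb, 75 kb and 225 to 230 kb were in all 4 lists. The first ran to Chsy1, a chondroitin synthase gene, or to a bin beside it in vehicle replicate 2, and its near anchor lay in Lrrk1, the kinase gene next to Aldh1a3, in all lists but that of progesterone. The 75 kb loop had both anchors in Lrrk1 and the same pair of bins in each list. The last ran from the opposite flank to Asb7, a ubiquitin ligase subunit gene. A 35 kb loop inside Lrrk1 was in the knockout alone, and a 1200 kb loop to Lrrc28 and Ttc23 was in vehicle replicate 3 alone.

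Aldh1a1 (chr19:20492583-20643463, plus strand) was the synthesis gene with the fewest loops: 0 after progesterone, 1 in the knockout, 1 in vehicle replicate 2 and 0 in vehicle replicate 3. The anchors of both loops overlapped the gene. The knockout loop spanned 110 kb and joined the bins that hold its 2 RefSeq start sites, at 20492583 and 20601968. The vehicle replicate 2 loop spanned 50 kb and shared the upper of these anchors (20600001 to 20610000). The gene also lay inside 3 larger loops after progesterone, 4 in the knockout, 2 in vehicle replicate 2 and 1 in vehicle replicate 3, of which the shortest spanned 280, 280, 320 and 275 kb.

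The 2 breakdown genes had 8 distinct loops, of which 3 were in all 4 lists, against 9 of 21 at the synthesis genes. Cyp26a1 (chr19:37697738-37701536, plus strand), which retinoic acid induces and whose enzyme removes it, had 1 loop after progesterone, 2 in the knockout, 2 in vehicle replicate 2 and 1 in vehicle replicate 3. A 185 kb loop joined 37700001 to 37705000 with 37885001 to 37890000, the same pair of 5 kb bins in each of the 4 lists. A 235 kb loop from the same anchor to Myof, a membrane repair protein gene, was in the knockout and vehicle replicate 2. The anchor covers the upper end of the gene and lies 2.19 kb from its start site and so from the printed direct repeat. Cyp26c1, another enzyme of this family, ends 4418 bases below Cyp26a1, and all of these loops also fell in its window.

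Cyp26b1 (chr6:84571414-84593908, minus strand), the enzyme gene that keeps retinoic acid from germ cells of the embryonic testis, had 3 loops after progesterone, 5 in the knockout, 4 in vehicle replicate 2 and 3 in vehicle replicate 3. A 490 to 500 kb loop to Dysf, a muscle membrane protein gene, and a 180 to 185 kb loop to a segment with no protein-coding gene were in all 4 lists. The printed Cyp26b1 promoter lay in an anchor of 3 loops after progesterone, 4 in the knockout, 0 in vehicle replicate 2 and 3 in vehicle replicate 3. In vehicle replicate 2 the nearest anchor was 3.81 kb away. There the near anchor of both shared loops was the bin 84585001 to 84590000. After progesterone and in vehicle replicate 3 it was the next bin up, which holds the promoter, and the knockout had 1 loop of each kind. Loops to Exoc6b, an exocyst gene on the higher side, spanned 325 to 340 kb in all lists but that of vehicle replicate 3, 425 kb in the knockout alone and 110 kb in vehicle replicate 2 alone. A 325 kb loop to the lower side was in the knockout and vehicle replicate 3.

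The nuclear receptor genes differed in how far the lists shared their loops. Rara (chr11:98927800-98974942, plus strand), the broadly expressed receptor, had 3 loops after progesterone, 5 in the knockout, 6 in vehicle replicate 2 and 3 in vehicle replicate 3. Of its 6 distinct loops 3 were in all 4 lists. One of them, 35 to 50 kb long, had both anchors at Rara. In the wild-type lists it ran from the flank, in the replication gene Cdc6, to the far end of Rara (98970001 to 98975000), and in the knockout it ran from the bin over the lower edge of Rara (98925001 to 98930000) to a bin inside it (98960001 to 98965000). The others, of 200 to 225 kb and 170 to 180 kb, ran towards Ccr7, a chemokine receptor gene. A 120 kb loop to Igfbp4, the gene of an insulin-like growth factor binding protein, and a loop of 55 to 60 kb were in the knockout and vehicle replicate 2. In vehicle replicate 2 their near anchors overlapped Cdc6 and the neighbouring gene Gjd3, and not Rara. The 170 kb knockout loop to Ccr7 also had its near anchor in Gjd3 and not in Rara. An anchor overlapped the body of Rara in 3 loops after progesterone and in 3 in the knockout. It did so in 4 in vehicle replicate 2 and in 2 in vehicle replicate 3. A 170 kb loop to Msl1 was in vehicle replicate 2 alone. The start site at 98964872 lay in an anchor of 1 knockout loop and 1 vehicle replicate 2 loop, and none of the 3 start sites below it lay in any anchor.

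Rarb (chr14:16430839-17082331, minus strand), the receptor whose gene retinoic acid itself induces, had the most distinct loops, and few were shared. It had 6 loops after progesterone, 7 in the knockout, 8 in vehicle replicate 2 and 2 in vehicle replicate 3. Of its 16 distinct loops 1 was in all 4 lists, 4 were in 2 lists and 11 were in 1 list. The single-list loops numbered 2 after progesterone, 4 in the knockout, 5 in vehicle replicate 2 and 0 in vehicle replicate 3. At the other genes 16 of 39 distinct loops were in all 4 lists and 11 were in 1 list. Of all distinct loops of the genome 28.1% were in all 4 lists and 41.4% were in 1 list. The loop in all 4 lists spanned 970 kb, from 16430001 to 16440000 at the end of the gene, an anchor that also overlaps the topoisomerase gene Top2b, to 17400001 to 17410000. The body of Rarb is 651493 bases long and its window of 671.5 kb can touch more loops than the others, and its part in this difference was not tested.

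When all anchors of Rarb loops that overlapped after 10 kb was added were joined, they fell into 10 sites, of which 4 were in all 4 lists: 16425001 to 16450000, 16725001 to 16750000, 16945001 to 16975000 and 17400001 to 17410000. The printed Rarb promoter lies in a further site, from 16550001 to 16580000, that was used by 1 loop after progesterone, 3 in the knockout, 2 in vehicle replicate 2 and 0 in vehicle replicate 3. Its start site at 16575476 was inside an anchor of 0, 3, 2 and 0 of these loops in the same order. The progesterone anchor, a 25 kb bin, ended 0.48 kb short of it, and in vehicle replicate 3 the nearest anchor was 135 kb away. From the promoter site, loops of 140 kb reached the end of the gene in the knockout and vehicle replicate 2. Another loop from this site, of 175 kb after progesterone and 160 kb in the knockout, stayed inside the gene and was in neither vehicle list. A loop of 380 kb stayed inside the gene in the knockout, and one of 830 kb left it in vehicle replicate 2.

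**Figure D3:**
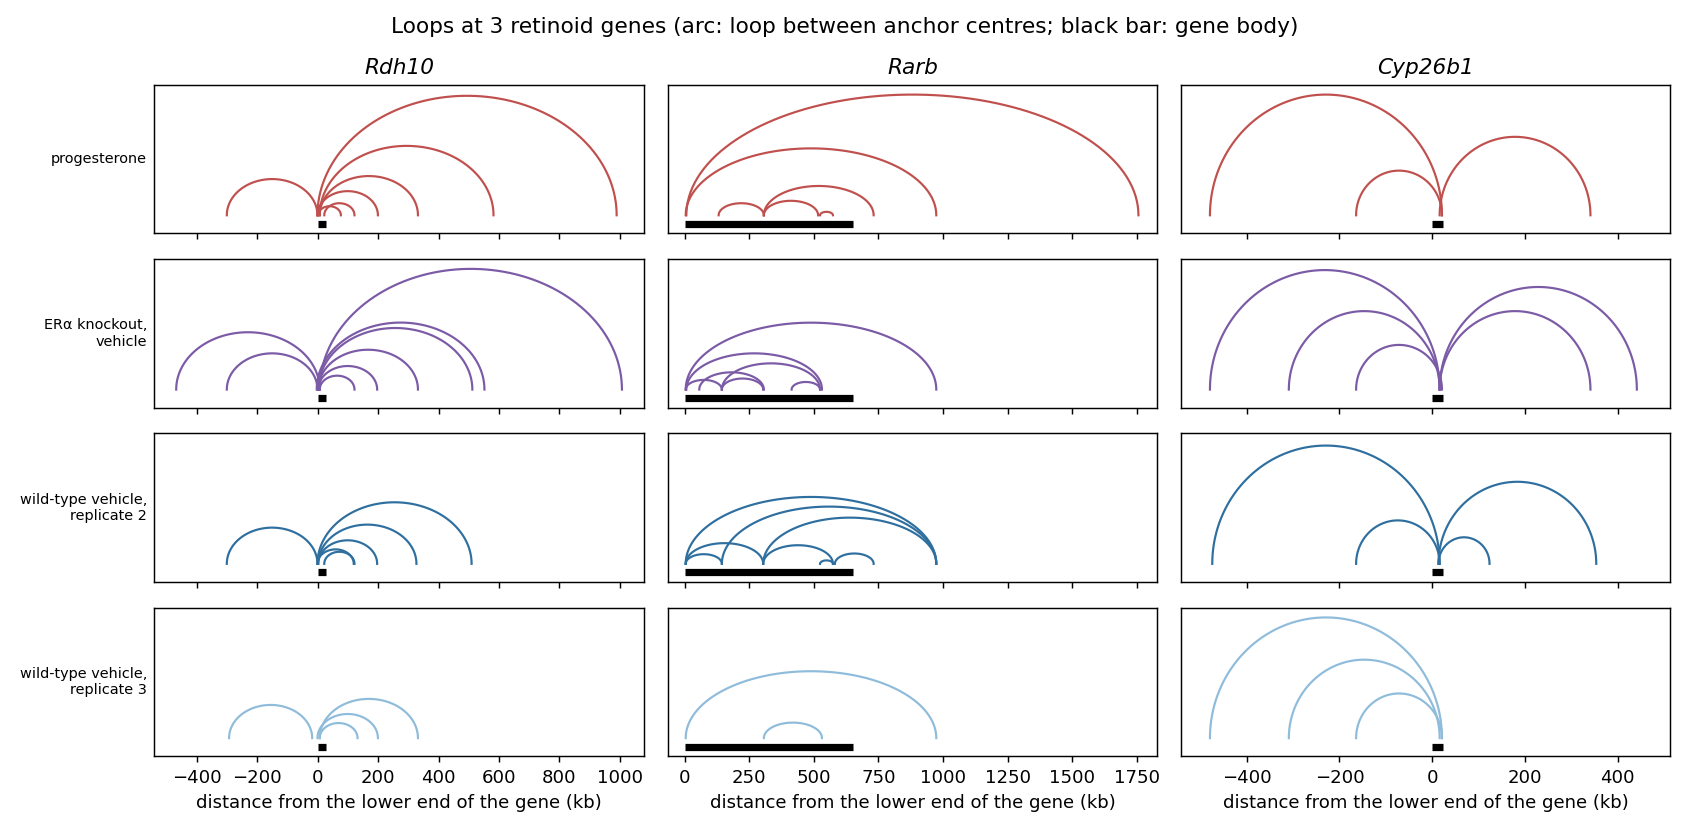
Loops at Rdh10, Rarb and Cyp26b1 in each library, drawn as arcs between anchor centres, with the distance in kb from the lower end of the gene on the horizontal axis, arc height in proportion to span, and the gene as a black bar. The 970 kb arc of Rarb is in all 4 rows while the shorter arcs within the gene differ between rows, and Rdh10 shows its 990 and 1000 kb arcs in the upper 2 rows.

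Rarg (chr15:102234938-102257522, minus strand), the receptor of skin and cartilage, had 2 loops after progesterone, 5 in the knockout, 3 in vehicle replicate 2 and 1 in vehicle replicate 3. The anchor touched the body of Rarg in 1, 3, 1 and 0 of them in the same order. The loop in all 4 lists, 45 kb long, joined Csad with the integrin gene Itgb7 in the flank of Rarg, through the same pair of 5 kb bins in each list. Its anchor lay 9.94 kb from Rarg, at the edge of the window, and in vehicle replicate 3 it was the loop by which Rarg was counted. A loop of 40 to 80 kb from the body of Rarg was in all lists but that of vehicle replicate 3. It ended at Espl1, the separase gene, after progesterone and in vehicle replicate 2, and in the knockout 1 loop ended there and 1 at Mfsd5. A 105 kb loop from Itgb7 to Tns2 and Spryd3 was in the knockout and vehicle replicate 2, and a 140 kb loop from Rarg was in the knockout alone.

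Stra6 (chr9:58063793-58154004, plus strand) was the 1 retinoid gene at no loop. Its nearest anchor was 13.8 kb away after progesterone and 23.8 kb in the knockout and in both vehicle libraries, outside the window. It lay inside larger loops, 2 after progesterone and 1 in each of the other libraries, and the shortest of them spanned 165 kb in each list. At the edge of the window as a whole, 25 loops after progesterone had an anchor in a gene body, 3 in the 10 kb flank and 2 in the next 10 kb outside. The same counts were 32, 9 and 3 in the knockout, 30, 7 and 1 in vehicle replicate 2, and 15, 6 and 1 in vehicle replicate 3.

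By role, the 4 synthesis genes had 13 loops after progesterone, 17 in the knockout, 14 in vehicle replicate 2 and 11 in vehicle replicate 3. The 2 breakdown genes had 4, 7, 6 and 4, and the 3 nuclear receptor genes had 11, 17, 17 and 6 in the same order of libraries. In all 3 roles the progesterone count lay within the range of the vehicle replicates, and the knockout count lay above both vehicle replicates for synthesis and breakdown and at the higher one for the receptors. Per 10000 loops of the list the order turned for synthesis and breakdown. The synthesis genes then had 11.1 after progesterone, 7.79 in the knockout, 8.54 in vehicle replicate 2 and 11.7 in vehicle replicate 3. The breakdown genes had 3.4, 3.21, 3.66 and 4.26, and the nuclear receptor genes 9.36, 7.79, 10.4 and 6.39. On that scale the knockout was below both vehicle replicates for synthesis and breakdown. Progesterone was also below both for breakdown (3.4 against 3.66 and 4.26), and between them for synthesis and the receptors. The vehicle replicates themselves were furthest apart at the nuclear receptor genes.

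Gene length sets how much a window can catch, so loops were also set against window length. Per 100 kb of window the breakdown genes had 6.03 loops after progesterone, 10.6 in the knockout, 9.05 in vehicle replicate 2 and 6.03 in vehicle replicate 3. The synthesis genes had 3.47, 4.54, 3.74 and 2.94, and the nuclear receptor genes 1.41, 2.18, 2.18 and 0.768. All protein-coding genes had 1.46, 2.76, 2.01 and 1.2. Without Rarb, the other two receptor genes had 4.56, 9.11, 8.2 and 3.65, so the low density of the receptor group came with the long Rarb window. The added flanks make up most of the window of a short gene such as Cyp26a1. Every Cyp26a1 loop had an anchor in the gene body. How far window length and anchor width set the density of the breakdown genes was not tested.

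**Figure D4:**
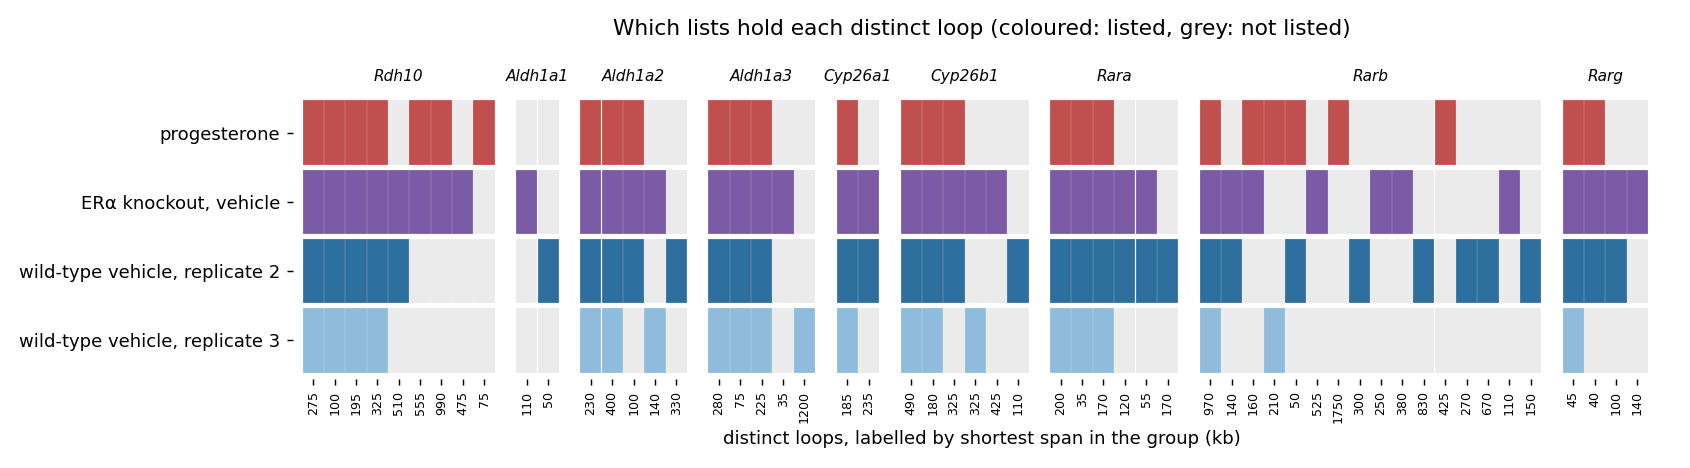
Presence of the 55 distinct loops of the retinoid genes in the 4 lists, 1 column a loop, labelled by its shortest span in kb, with coloured cells where it was listed. The 17 loops listed in all 4 libraries come first within each gene and occur at every gene with loops other than Aldh1a1, while Rarb has 11 columns with a single coloured cell.

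Over all 10 genes the 127 loops made 55 distinct loops, of which 17 were in all 4 lists (30.9%, exact interval 19.1 to 44.8), against 28.1% of the 25449 distinct loops of the genome. They lay at 8 of the 10 genes, and 40.4% of all protein-coding genes had such a loop. Another 22 of the 55 (40.0%) were in 1 list, against 41.4% of all distinct loops. Taken as a pool, loops at the retinoid genes were thus shared between lists about as often as other loops. The pool joins unlike parts: 1 of 16 distinct loops was in all 4 lists at Rarb and 16 of 39 at the other genes. Loops of a gene can share an anchor, which the interval does not take into account. Their median span was 205 kb after progesterone, 195 kb in the knockout, 185 kb in vehicle replicate 2 and 225 kb in vehicle replicate 3, and for all loops it was 190, 150, 185 and 200 kb. Loops in 5 kb bins made up 35.7%, 51.2%, 43.2% and 33.3% of them in the same order, against 49.6%, 64.8%, 58.7% and 42.1% of all loops. Of the loops with 1 anchor in a window, the far anchor held no protein-coding gene in 9 of 24 after progesterone, 12 of 33 in the knockout, 11 of 31 in vehicle replicate 2 and 7 of 19 in vehicle replicate 3. This share was not counted over all genes, so it describes the retinoid genes alone.

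Some near anchors took in a neighbour, which was not counted for other genes. The near anchor touched the retinoid gene and no other protein-coding gene in 11 of 24 such loops after progesterone, 18 of 33 in the knockout, 18 of 31 in vehicle replicate 2 and 8 of 19 in vehicle replicate 3. It touched a neighbour and not the retinoid gene in 2, 8, 6 and 5 of them. Start sites listed by RefSeq lay in an anchor for 2 of 8 genes after progesterone, 6 in the knockout, 4 in vehicle replicate 2 and 2 in vehicle replicate 3. Among all protein-coding genes with a listed start site the shares were 21.6%, 38.0%, 27.6% and 17.3% in the same order. Among these 8 genes, Aldh1a2 was the one with a listed start site in an anchor in all 4 libraries. Rdh10 and Aldh1a3 had no listed start site, so they were not looked up.

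After progesterone, loops listed in neither vehicle library were at Rdh10 and Rarb, and no loop of both vehicle lists was missing, but both shares had intervals that hold the share over all loops. Of 17 distinct loops in both vehicle lists, 0 were missing from the progesterone list. A count of 0 allows a share of up to 17.6% when the limit is set at 3 loops, and the exact interval reaches 19.5%. Of all such loops 11.7% were missing, which lies inside that interval. Of the 10 genes 0 had such a loop, against 8.65% of all protein-coding genes. In the other direction 6 of 28 distinct progesterone loops (21.4%, exact interval 8.3 to 41.0) were in neither vehicle list, against 12.0% of all progesterone loops. They lay at 2 genes, Rdh10 and Rarb with 3 each, and 10.3% of all genes had such a loop. At Rarb they spanned 175, 425 and 1750 kb. The background of 12.0% lies inside the interval. As a baseline between vehicle libraries, 4 of 21 loops found in vehicle replicate 2 and after progesterone were missing from vehicle replicate 3 (19.0%, all loops 25.3%). In turn 1 of 18 found in vehicle replicate 3 and after progesterone was missing from vehicle replicate 2 (5.56%, all loops 3.33%). The count of 6 became 2 with loops of 5 kb bins alone and 10 without vehicle replicate 2. The count of 0 became 3 without vehicle replicate 2, 15 without vehicle replicate 3, and 2 where anchors had to overlap as listed.

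In the knockout 6 of the 10 genes had loops listed in neither vehicle library and no loop of both vehicle lists was missing, and here too both intervals hold the share over all loops. Here 0 of the same 17 loops were missing (exact interval up to 19.5%), against 5.25% of all such loops, and of the 10 genes 0 had such a loop, against 3.86% of all genes. Of 40 distinct knockout loops 12 (30.0%, exact interval 16.6 to 46.5) were in neither vehicle list, against 37.1% of all knockout loops. Rarb had 5 of them, Rdh10 had 3, and Aldh1a1, Aldh1a3, Cyp26b1 and Rarg had 1 each. By the same rule 41.0% of all protein-coding genes had such a loop. The knockout list is the longest, and vehicle replicate 3 lacked 9 of the 26 retinoid gene loops found in vehicle replicate 2 and the knockout (34.6%, all loops 38.1%). The count of 12 became 6 with loops of 5 kb bins alone and 21 without vehicle replicate 2. The count of 0 became 2 without vehicle replicate 2, 10 without vehicle replicate 3, and 1 where anchors had to overlap as listed. The comparisons of progesterone and of the knockout share the vehicle lists.

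A list of 35 other genes of the retinoid pathway was looked up by the same rule, and all matched in RefSeq. Of these, 24 had a loop after progesterone, 26 in the knockout, 26 in vehicle replicate 2 and 20 in vehicle replicate 3, with medians of 1, 2, 1 and 1 loops. The shares of all protein-coding genes with a loop were 49.4%, 64.4%, 56.8% and 44.8%, as above. Rxra, the partner that retinoic acid receptors pair with, had 6, 5, 7 and 6 loops, and 5 of its distinct loops were in all 4 lists. Dhrs3, whose enzyme turns retinaldehyde back to retinol, had 4, 7, 6 and 2 loops with 2 in all lists. Adh7, Fabp5 and Nrip1 also had 2 such loops each. Rbp7, Adh5, Cyp26c1, Rxrg, Bco1, Bco2, Stra8, Tgm2, Ppard, Ncor1 and Rarres1 had 1 each. Stra6l, a relative of Stra6, had 3, 2, 3 and 1 loops but no distinct loop in all lists. No loop was listed in any library at 7 of the 35 genes, against 30.5% of all genes. These are the retinol carriers Rbp2 and Rbp4, the binding protein gene Crabp1, and the enzyme genes Lrat, Dhrs9, Rdh1 and Rdh12.

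Among 21880 protein-coding genes more than 1 Mb from Rarb, the loop counts most like those of Rarb were at Whrn, with 6 loops after progesterone, 7 in the knockout, 7 in vehicle replicate 2 and 2 in vehicle replicate 3. The summed difference from Rarb over the 4 libraries was 1 loop. Cyria (5, 7, 7 and 2) and Evx2 (6, 7, 7 and 3) differed by 2, and 7 genes in all lay within that distance.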

How the data were processed

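Hi-C libraries were made from frozen uterus (Arima kit, per the labels). The deposited files give each loop's pair of anchors as positions, with no counts or scores. The submitters' processing notes name mm10 and Juicer 1.5.6. Anchors are 5, 10 or 25 kb wide, and starts are given here counting from 1. No source used here gives the loop caller, its thresholds or the depth.

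Genes came from RefSeq GRCm38.p6 (21887 protein-coding genes on the main chromosomes). Matching loops were joined by single linkage over the 4 lists, which can chain loops whose ends do not overlap each other. Loop sites were defined after the data were examined. The matching step was checked on an altered copy of the vehicle replicate 2 list. Its kept loops were shifted by less than the added 10 kb, so their recovery was fixed in advance. The window step was checked on the listed loops, for a random set of genes, against a second coding of the same rule. Members and lists were chosen with earlier results of these data known. Named were the 10 genes, pathway genes with a loop in all 4 lists, genes at far anchors of loops that are in all lists or differ, and 3 genes of like counts. Genes of other loops, Rpl7, Cyp26c1, pathway genes without loops and values of interest were named after they were seen. Some genes of the pathway list are not reported here by name. The planned promoter search used 5-letter half-sites and so missed the first base of each; 6-letter half-sites and TATANA were set after the sequences were seen. No test was run, since each condition has 1 library except vehicle. Whether the vehicle libraries are separate animals is not stated. Shares carry exact (Clopper-Pearson) 95% intervals. Alternatives changed the window, the match, the bin size and the vehicle libraries. Python 3.11.15, numpy 2.4.6, pandas 2.3.3, scipy 1.17.1 and matplotlib 3.10.9 were used.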

Additional observations from a re-analysis of the deposited data

How the results depend on the processing

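No paired analysis was possible because the groups share 1 replicate number at most and no test was run. Window size decided some genes: with the body alone Aldh1a3 had 1, 0, 0 and 1 loops after progesterone, in the knockout and in vehicle replicates 2 and 3, Rarg had 1, 3, 1 and 0, and with 25 kb of flank Stra6 had 2, 1, 1 and 1. Counts over the 10 genes stayed within 1.5 times under both windows. With loops of 5 kb bins alone, which are fewer by construction, the loops numbered 10 after progesterone, 21 in the knockout, 16 in vehicle replicate 2 and 7 in vehicle replicate 3, the genes with a loop in vehicle replicate 3 were 5, the median over genes and libraries was 1 in place of 3, and loops in all 4 lists were 7 in place of 17. Progesterone and knockout loops in neither vehicle list were then 2 and 6. Per 10000 loops the counts were 23.8, 18.8, 22.6 and 22.4 in the order used above. With 0 kb added to the anchors 7 loops were in all lists, and of those that both vehicles held, 2 were missing after progesterone and 1 in the knockout; with 25 kb added 1 was missing in the knockout. Without vehicle replicate 2 or 3, the loops in the vehicle list left that were missing numbered 3 and 15 for progesterone and 2 and 10 for the knockout, and those in the other direction 10 and 7 for progesterone and 21 and 14 for the knockout. Matching by midpoints, or each loop on its own (added after the data were seen), kept all 5 counts within 1.5 times. The planned 5-letter half-sites matched no retinoid gene promoter at either spacing, against 0.207% and 0.402% of all. Depth and loop strength are unknown, so a stricter threshold could not be tried.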
